A study of Mus musculus with 6 samples.

Results

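The bone morphogenetic protein (BMP) ligands measured here are 5 genes, Bmp2, Bmp4, Bmp5, Bmp6 and Bmp7. They were taken by symbol from the 31053 genes of the deposited single-cell count matrices, and all 5 were present. Their transcripts were followed through the cell classes of 2 preparations made from adult C57BL6 mice of either sex, without a transgene, agent or injury in any group. In the cortical surface-associated (CSA) preparation, cells were released enzymatically from the outer face of the dorsal cortex, which carries the leptomeninges (pia and arachnoid); there were 4 libraries. In the bone-associated (BA) preparation, cells came from the tissue lining the inside of the skull, which is mainly dura; there were 2 libraries. Each library pooled several mice, the mice were not perfused, and viable cells were sorted as DRAQ5-positive and propidium iodide-negative before 10x Genomics droplet sequencing of transcript 3′ ends.

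The libraries held 951 to 5602 cell barcodes and 8408685 to 56169736 unique molecular identifiers (UMIs, 1 per captured transcript). Filtering left 8680 cells, 5272 CSA and 3408 BA, with medians of 5461 to 9556 UMIs per cell by library. Any pair of libraries shared 0 to 2 barcodes. CSA libraries 3 and 4 stood apart: hemoglobin transcripts made up 84.6% and 71.9% of their UMIs before filtering and 17.9% and 11.8% after it, against at most 0.520% before filtering in the other 4, and neither held vascular smooth muscle cell (VSMC)-like cells. Every edgeR comparison of a ligand that rests on them was therefore repeated without them. The other genes of the pathway, given last, were not refitted. Clusters were named only from marker genes, and 587 CSA and 437 BA cells stayed without a name. The mesenchymal-like cells are called leptomeningeal in the CSA preparation (268 cells) and dural in the BA preparation (283 cells). All 8 of their markers, among them Dcn and Col1a2, were detected in both, with a summed level of 6143 to 10400 CPM (counts-per-million, UMIs scaled to the total of the class in a library) in the CSA libraries and 19427 to 24283 CPM in the BA libraries.

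BMPs are secreted dimers of the TGF-beta superfamily. They bind a complex of type I and type II serine/threonine kinase receptors, which phosphorylates SMAD1, SMAD5 and SMAD9; these enter the nucleus with SMAD4 and switch on response genes such as the Id genes. Secreted antagonists such as noggin and chordin-like proteins trap the ligands outside the cell. Bmp2 and Bmp4 form one subgroup and Bmp5, Bmp6 and Bmp7 another. BMPs from the meninges and vessels are known to act in skull and cortical development, and endothelial BMP6 controls liver hepcidin and so iron balance. In GRCm38, with GENCODE vM21 gene limits, Bmp2 lies on chr2:133552159-133562885 (plus strand), Bmp4 on chr14:46383520-46390669 (minus), Bmp5 on chr9:75775364-75900310 (plus), Bmp6 on chr13:38345107-38500302 (plus) and Bmp7 on chr2:172868012-172940321 (minus).

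The 250 bases upstream of the annotated RefSeq start (GRCm38.p6) are shown for Bmp4 and Bmp5, a ligand that differed between leptomeningeal and dural cells and one whose call depended on a single library. Capitals mark GGGCGG, the core of a GC box, searched with its reverse complement CCGCCC. The Bmp4 window is chr14:46390670-46390919 on the minus strand and the Bmp5 window is chr9:75775115-75775364 on the plus strand.
Bmp4: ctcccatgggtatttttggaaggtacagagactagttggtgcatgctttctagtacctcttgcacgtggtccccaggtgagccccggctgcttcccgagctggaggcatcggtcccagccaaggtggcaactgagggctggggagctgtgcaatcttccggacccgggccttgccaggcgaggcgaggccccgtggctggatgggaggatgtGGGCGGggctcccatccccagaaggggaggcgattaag
Bmp5: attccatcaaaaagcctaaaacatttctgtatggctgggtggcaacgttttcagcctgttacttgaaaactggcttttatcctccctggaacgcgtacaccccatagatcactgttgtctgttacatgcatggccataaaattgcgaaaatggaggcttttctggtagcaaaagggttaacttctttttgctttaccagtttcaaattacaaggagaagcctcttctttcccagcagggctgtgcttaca
The Bmp4 window held 1 match and was 63.2% G or C; the Bmp5 window held 0 matches and was 42.8% G or C. Of 32851 promoter windows of the same length, 32.7% held a match and the median was 52.4% G or C. TATAAA, searched on both strands, was in 12.4% of all windows and in neither of these. Such matches describe the letters and are no evidence of binding.

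The class with the highest level differed among the ligands and between the preparations. Levels are CPM, and named classes with at least 10 cells in a library are counted. CSA astrocyte-like, oligodendrocyte-like and oligodendrocyte precursor-like cells had fewer in every library and were not ranked. With libraries pooled, the 19 astrocyte-like cells had Bmp2 at 131 CPM (30 UMIs in 2 cells) and Bmp7 at 39.2 CPM (9 UMIs in 7 cells). In the CSA preparation, leptomeningeal cells ranked first for Bmp4, Bmp6 and Bmp7, border macrophage-like cells for Bmp2 and pericyte-like cells for Bmp5. In the BA preparation no ligand was highest in dural cells. There border macrophage-like cells ranked first for Bmp2, endothelial-like cells for Bmp4 and Bmp6, and pericyte-like cells for Bmp5. For Bmp7 choroid plexus-like cells ranked first (24 cells, 1 library with enough of them), at 30.0 CPM. An unnamed BA cluster of 190 cells led by Il5, outside the ranking, had Bmp7 at 51.4 CPM. The ranks are of means. Among the leading classes the libraries overlapped for CSA Bmp2, Bmp4 and Bmp5 and for BA Bmp6, so the spread over libraries does not separate the first from the next class there. The classes share libraries, however, and within them the order can be read directly. Pericyte-like cells were above leptomeningeal cells for Bmp5 in 4 of 4 CSA libraries, border macrophage-like above leptomeningeal cells for Bmp2 in 3 of 4 (not library 3), and leptomeningeal above pericyte-like cells for Bmp4 in 3 of 4 (not library 4). For BA Bmp6, the 1 library with enough choroid plexus-like cells had them at 43.0 CPM and endothelial-like cells at 40.2 CPM.

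**Figure D1:**
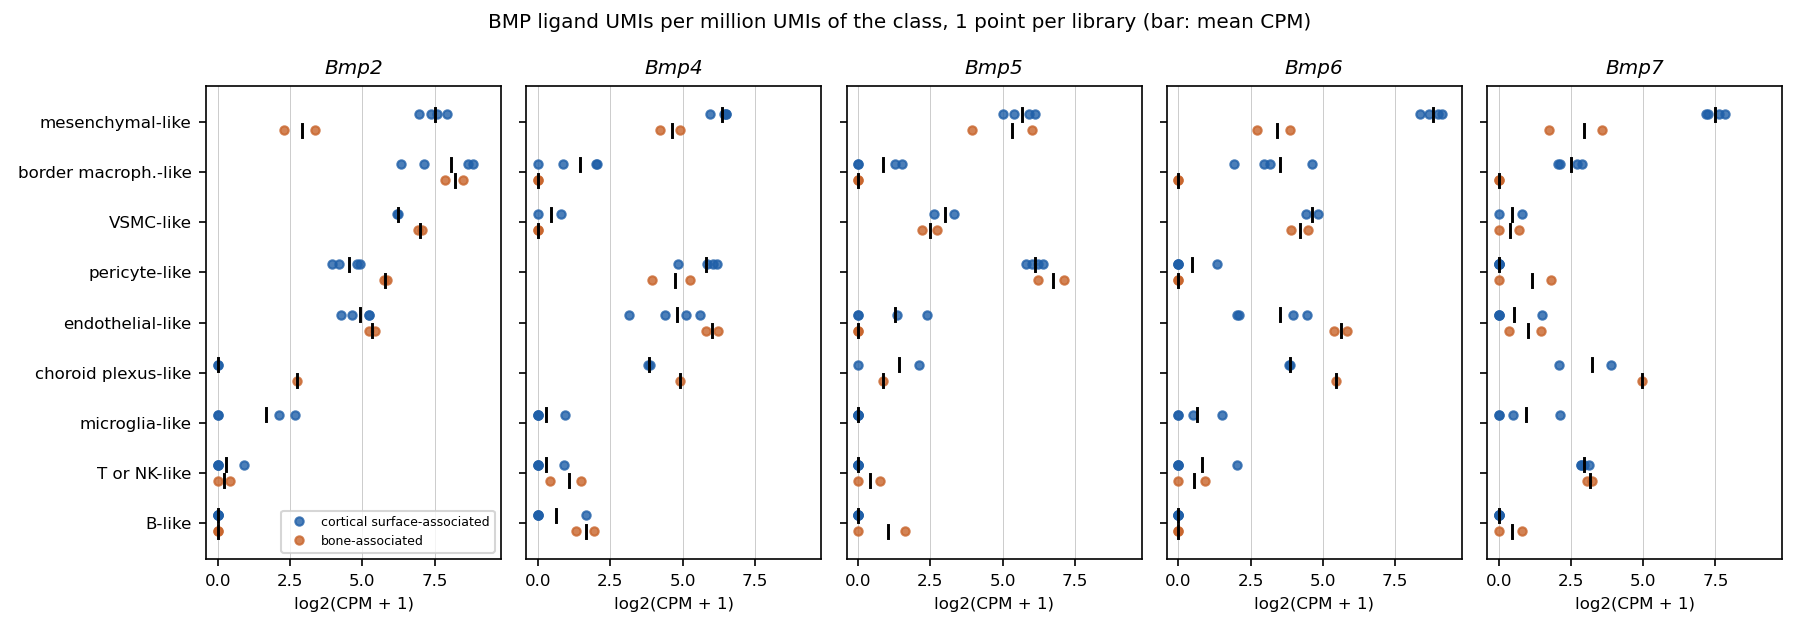
Level of each BMP ligand in 9 cell classes, as log2(CPM + 1) on the x axis; each point is a library (blue CSA, orange BA) and each black bar the log2 of the mean CPM + 1. The leptomeningeal points for Bmp6 (326 to 555 CPM) and Bmp7 (144 to 224 CPM) lie to the right of every other class, while the dural points lie at 13.6 CPM or less for both.

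Differences between preparations were tested in edgeR's quasi-likelihood model on UMIs summed per library, with Benjamini-Hochberg adjustment over all genes tested. A gene counted as called when its adjusted p was below 0.05 and its log2 fold change was 1.3 or more in either direction. Between leptomeningeal and dural cells, 4 of the 5 ligands were called, each higher in leptomeningeal cells, against a background of 14.7% of 9576 genes called in either direction. The libraries are the replicates (4 against 2), so the p-values measure the spread between libraries of pooled mice. Each preparation had its own dissection and libraries. Tissue of origin and preparation therefore cannot be told apart in any comparison between preparations.

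Bmp6, the iron-regulating ligand, separated the preparations in every library. It was at 507, 555, 405 and 326 CPM in the leptomeningeal cells of CSA libraries 1 to 4 (448 ± 103, SD, n = 4) and at 5.50 and 13.6 CPM in the dural cells of BA libraries 1 and 2 (9.56 ± 5.75, n = 2). All 4 CSA libraries were above both BA libraries. The log2 fold change was 5.40 ± 0.37 (SE; edgeR adjusted p = 1.1e-10), and it was called under all 20 alternatives tried, at 5.11 to 6.58. The upper end came from leaving out BA library 2, which leaves the 30 dural cells of BA library 1.

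Bmp7, which signals through the same receptor group as Bmp6, followed the same direction. Leptomeningeal cells had 196, 224, 144 and 150 CPM (178 ± 38.5, n = 4) and dural cells 11.0 and 2.36 CPM (6.68 ± 6.11, n = 2), again without overlap. The log2 fold change was 5.61 ± 0.47 (edgeR adjusted p = 2.6e-09). It moved with the dural library used, to 4.30 without BA library 2 and 6.33 without BA library 1, and to 4.39 with every cell thinned to 1500 UMIs; it was called each time. An unnamed BA cluster of 190 cells led by Il5 had Bmp7 at 51.4 CPM. Among the other named BA classes Bmp7 was at 30.0 CPM in choroid plexus-like cells and at 12.1 ± 17.1 CPM in Schwann-like cells (n = 2, 2 UMIs). It was at 7.87 ± 0.80 CPM in T or NK-like cells (n = 2) and at 1.02 ± 1.03 CPM in endothelial-like cells (n = 2). The T or NK-like level was uneven, from 0 to 12.7 CPM over 5 clusters, and those cells held 33 UMIs of Bmp7 and 1 of Bmp6, whereas dural cells held 15 and 55.

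Bmp2, a ligand best known for bone and cartilage induction, was at 240, 166, 192 and 122 CPM in leptomeningeal cells (180 ± 49.3, n = 4) and at 9.17 and 3.93 CPM in dural cells (6.55 ± 3.70, n = 2). The cells next to the cortex, not those next to bone, held the higher level in every library. The log2 fold change was 5.28 ± 0.42 (edgeR adjusted p = 1.2e-09). It was 4.55 without BA library 2, and 3.20 when cells with up to 20% mitochondrial UMIs were admitted, a setting that named 345 instead of 283 BA and 371 instead of 268 CSA cells mesenchymal-like; it was called each time. Border macrophage-like cells had the highest mean Bmp2 level of the CSA classes ranked. Their 8 markers summed to 27.2 to 490 CPM in the leptomeningeal cells of the CSA libraries (0 of 8 at 0) and to 7.33 to 58.4 CPM in the dural cells (1 of 8 at 0). The highest of these was in CSA library 3. Bmp2 was at 192 CPM there and at 122 CPM in CSA library 4, where the macrophage markers were lowest; in CSA border macrophage-like cells the markers summed to 14183 CPM beside a Bmp2 level of 359 CPM. The part of macrophage RNA in the leptomeningeal Bmp2 level was not tested.

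Bmp4, the close relative of Bmp2, was called at a smaller difference. Its levels were 88.9, 90.3, 85.2 and 61.2 CPM in leptomeningeal cells (81.4 ± 13.6, n = 4) and 29.3 and 17.8 CPM in dural cells (23.6 ± 8.14, n = 2), without overlap. The log2 fold change was 2.08 ± 0.34 (edgeR adjusted p = 4.9e-05), with a range of 1.76 to 2.33 over the 19 alternatives in which it could be tested, all called; with cells thinned to 1500 UMIs it was too low to test.

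Bmp5 was the ligand not called. Leptomeningeal cells had 67.5, 30.9, 58.6 and 40.8 CPM (49.4 ± 16.6, n = 4), and of the BA libraries 1 lay inside that range and 1 below it, at 64.2 and 14.2 CPM (39.2 ± 35.4, n = 2). The log2 fold change was 0.72 ± 0.47 (edgeR adjusted p = 0.37). One library decided the value: without BA library 1 it was 1.82 and called (edgeR adjusted p = 0.0052), and without BA library 2 it was -0.19 (edgeR adjusted p = 0.88).

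**Figure D2:**
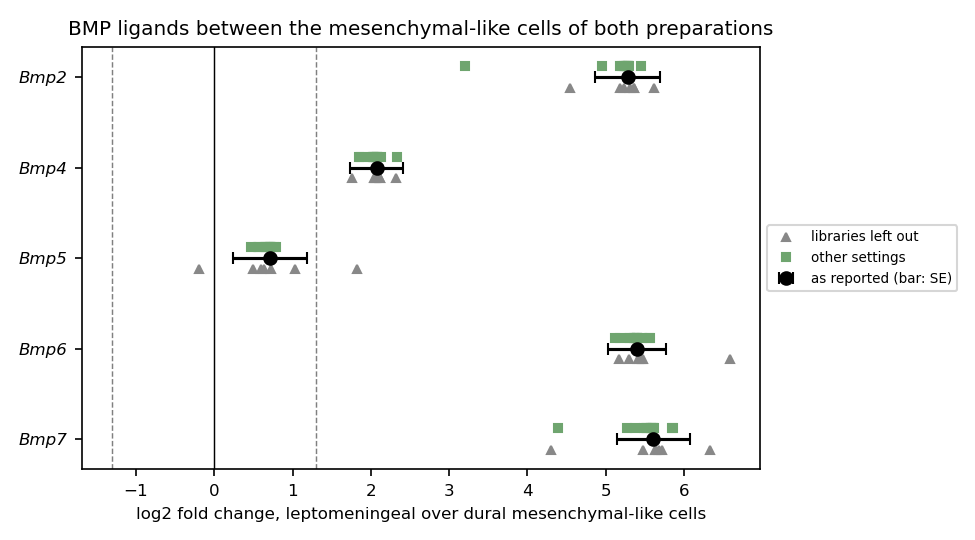
Log2 fold change of each ligand in leptomeningeal over dural cells on the x axis; black points are the reported values with SE, grey triangles fits with libraries left out, green squares other settings, and dashed lines the fold threshold of 1.3 in each direction. Bmp2, Bmp6 and Bmp7 sit above 5 as reported, Bmp4 at 2.08, and the Bmp5 triangles run from -0.19 to 1.82.

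The share of cells with at least 1 UMI of a ligand was compared after every cell was thinned to 1500 UMIs, since dural cells were deeper than leptomeningeal cells (median 15023 and 7630 UMIs). At that depth Bmp6 was detected in 52.0% of 256 leptomeningeal cells (exact binomial 95% interval 45.6 to 58.2%) and in 1.79% of 280 dural cells (0.582 to 4.12%). For Bmp7 the shares were 28.5% and 1.43%, for Bmp2 20.7% and 0.357%, for Bmp4 9.38% and 3.21%, and for Bmp5 7.42% and 2.50%. Without thinning, Bmp6 was detected in 89.6% of leptomeningeal and 12.4% of dural cells, Bmp7 in 65.3% and 3.53%, Bmp2 in 56.7% and 4.95%, Bmp4 in 41.4% and 15.9%, and Bmp5 in 23.9% and 15.5%. T or NK-like cells (median 6012 and 6109 UMIs) gave the background for every ligand but Bmp7: 0 of 556 CSA cells had a UMI of Bmp2, Bmp4, Bmp5 or Bmp6 at the thinned depth, an exact interval of up to 0.661%, and 0.719% had at least 1 of Bmp7. In the BA preparation 0 of 603 such cells had a UMI of Bmp2, Bmp4 or Bmp6, an exact interval of up to 0.610%, while 0.166% had Bmp5. The dural share was above the T or NK-like interval for Bmp4 and Bmp5. For Bmp6 the exact intervals overlapped slightly, from 0.582% in dural cells (5 of 280) and up to 0.610% in BA T or NK-like cells (0 of 603). For Bmp2 the dural interval began at 0.00904%, well inside the T or NK-like one. Overlap of intervals is no test of a difference. No background was set for Bmp7, which 1.99% of the BA T or NK-like cells carried, unevenly by cluster. Of the BA endothelial-like cells 0 of 591 had a Bmp7 UMI, an exact interval of up to 0.622%, beside a dural interval of 0.391 to 3.62%. These intervals and limits cover counting error only.

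**Figure D3:**
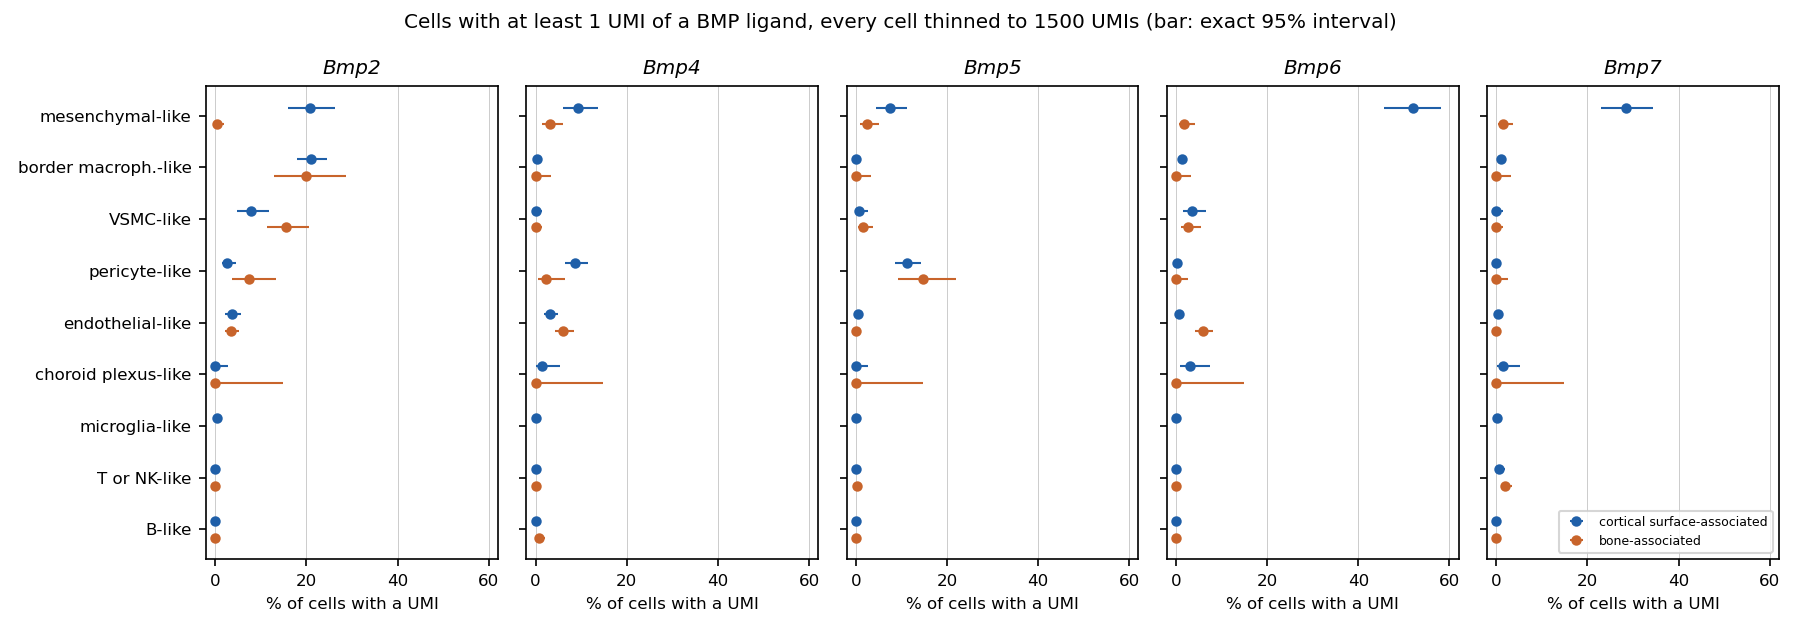
Percent of cells with at least 1 UMI of each ligand after thinning every cell to 1500 UMIs (x axis), by class, with exact 95% binomial intervals; blue CSA, orange BA. Leptomeningeal cells reach 52.0% for Bmp6 and 28.5% for Bmp7, and Bmp2 has similar shares in border macrophage-like cells of both preparations, 21.1% and 20.0%.

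Individual leptomeningeal cells often carried more than 1 ligand. Of the 256 cells at 1500 UMIs, 60 had none of the 5, 117 had 1, 57 had 2, 17 had 3, 5 had 4 and 0 had all 5. Of the 280 dural cells, 255 had none, 24 had 1 and 1 had 2. Bmp6 and Bmp7 were found together in 45 leptomeningeal cells, beside 37.9 from the product of their shares, and Bmp2 and Bmp6 in 28 beside 27.5. These are counts of cells of pooled libraries and were not tested. Without thinning, Bmp6 UMIs were the least concentrated of the 5 ligands in leptomeningeal cells: 240 of 268 leptomeningeal cells held a median of 4 each, and the 27 cells with the most held 27.2% of them. For Bmp7 the 27 highest cells held 39.1%, for Bmp4 44.7%, for Bmp2 45.2% and for Bmp5 62.6%. Such shares depend on the number of UMIs, which was 1170 for Bmp6 and 99 for Bmp5. They therefore do not show how evenly the cells expressed each ligand.

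Leptomeningeal sub-clusters differed in level more than in which ligands they carried. None of 6 sub-clusters met the criteria for a pial or arachnoid name, so they are described by their leading genes. Bmp6 ran from 336 to 655 CPM across them and Bmp7 from 136 to 274 CPM. The sub-cluster led by Slc4a10, Mfap5 and Slc47a1 (29 cells) had the lowest Bmp6 (336 CPM) and Bmp2 (61.6 CPM) and the highest Bmp7 (274 CPM). The one with the highest Bmp2 (329 CPM) and Bmp6 (655 CPM) held 54 cells and was led by Gm20342 and Ecd. A sub-cluster led by the macrophage genes Mrc1, C1qa and Pf4 (43 cells) had Bmp2 at 217 CPM and Bmp6 at 550 CPM, inside the range of the others. The sub-clusters were made from these cells' own transcripts, so the values are descriptions. In the BA preparation, the mesenchymal-like cluster led by Inmt, Hpca and Apod (90 cells) had Bmp4 at 45.3, Bmp5 at 40.4 and Bmp6 at 25.1 CPM. The cluster led by the cartilage and tendon genes Chad and Comp (139 cells) had 11.2, 16.9 and 3.74 CPM, and that led by Gjb6 and Krt12 (54 cells) 4.05, 3.04 and 16.2 CPM, with 0 UMIs of Bmp2 and Bmp7. The Gjb6-led cluster had 1 pial (Gjb2) and 1 arachnoid (Slc47a1) marker among its leading genes, and Gjb6 is also among those of the CSA mesenchymal-like cluster, so the comparison was repeated without these 54 of 283 dural cells, an alternative chosen after the data were seen. The log2 fold changes of leptomeningeal over dural cells were then 4.95 for Bmp2, 1.85 for Bmp4, 0.46 for Bmp5, 5.56 for Bmp6 and 5.27 for Bmp7, and the same 4 ligands were called. The Inmt-led cluster had the pial markers Cyp1b1 and Igfbp4 among its leading genes. Clec3b was among the leading genes of both this cluster and the CSA mesenchymal-like cluster. Its 90 cells were kept as dural, and the comparison was not repeated without them.

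Within the CSA libraries, leptomeningeal cells were compared with each neighbouring class, with the library as a block. All named classes entered 1 fit. The p-values therefore rest on a spread pooled over all classes, not on that of the classes compared. All 5 ligands were called higher in leptomeningeal than in endothelial-like cells, beside 22.0% of genes called in that comparison. The log2 fold changes were 2.71 for Bmp2, 1.78 for Bmp4, 4.46 for Bmp5 and 5.75 for Bmp6, and Bmp7 had 466 leptomeningeal and 3 endothelial-like UMIs, a ratio of 247 in CPM (84.1 to 1204). The Bmp5 value was 6.39 without CSA library 2 and 3.78 without libraries 3 and 4, and was called in both. Against pericyte-like cells 3 of 5 were called (15.9% of genes): Bmp2 by 3.18, Bmp6 with 1170 UMIs against 1, and Bmp7 with 466 against 0, which is at least 184-fold higher in CPM against a floor of 3 UMIs over the group. Bmp4 (0.82, edgeR adjusted p = 0.012) was under the fold threshold and Bmp5 (-0.34, edgeR adjusted p = 0.56) was not called.

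Against VSMC-like cells, which came from CSA libraries 1 and 2 only, all 5 were called (21.8% of genes). Bmp6 differed by 4.41, Bmp5 by 2.52 and Bmp2 by 1.505 ± 0.33 (edgeR adjusted p = 2.6e-04), while Bmp4 had 199 UMIs against 1 and Bmp7 466 against 1. The Bmp2 call was lost without CSA library 3 (1.21), without libraries 3 and 4 (1.22), without the library block (1.21) and in DESeq2 (1.93, adjusted p = 0.068), and the Bmp5 call in DESeq2 (adjusted p = 0.15); Bmp5 was called at 1.90 without CSA library 1 and 3.45 without CSA library 2. Against border macrophage-like cells 4 of 5 were called higher (30.4% of genes), by 5.40 for Bmp4, 5.39 for Bmp5, 5.26 for Bmp6 and 5.26 for Bmp7; without CSA library 2 these were 6.00, 6.95 and 6.05 for Bmp4, Bmp5 and Bmp6, and without CSA library 1 Bmp5 was 4.59. Bmp2 went the other way, at -0.61 ± 0.26 (edgeR adjusted p = 0.051), and was not called. It ran from -1.24 to -0.25 over 17 alternatives (edgeR and DESeq2 adjusted p of 4.1e-06 to 0.82, called in none), lowest without CSA libraries 3 and 4 and highest without CSA library 2; in CSA library 3 alone leptomeningeal cells were the higher, at 192 against 80.4 CPM. Against microglia-like cells, which had 0 to 7 UMIs of each ligand in 757 cells, all 5 were called (31.8% of genes); Bmp5, with 0 UMIs, was at least 69.2-fold higher in CPM in leptomeningeal cells.

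Dural cells stood in a different relation to their neighbours. Their p-values again rest on a spread pooled over all BA classes, here in 2 libraries, and do not measure the dural spread alone. Against endothelial-like cells of the same libraries all 5 were called (23.7% of genes), 3 of them lower in dural cells: Bmp2 by a log2 fold change of -2.96, Bmp4 by -1.54 and Bmp6 by -2.04. Bmp5 had 89 dural and 0 endothelial-like UMIs, at least 34.9-fold higher in CPM, and Bmp7 had 15 and 4. That Bmp7 call held under 6 of 11 alternatives (edgeR and DESeq2 adjusted p of 0.013 to 0.13). Against pericyte-like cells 3 were called (13% of genes): Bmp2 (-3.49) and Bmp5 (-1.71) lower in dural cells and Bmp6 higher, with 55 UMIs against 0, at least 4.28-fold. Against VSMC-like cells 4 were called (23.5% of genes), Bmp2 lower (-5.09), Bmp5 higher (2.44), Bmp4 higher with 84 UMIs against 0 (at least 20.9-fold) and Bmp7 higher with 15 against 1, a call that held under 8 of 11 alternatives (edgeR and DESeq2 adjusted p of 0.011 to 0.077). Bmp6, with 55 UMIs against 57, was not called, and was called under 0 of 12 alternatives. Against border macrophage-like cells 4 were called (30.8% of genes), Bmp2 lower (-6.24) and Bmp4, Bmp5 and Bmp6 higher, by at least 9.53-fold, 10.1-fold and 6.24-fold over 0 UMIs. DESeq2 called 2 of the 5 against endothelial-like, 2 against pericyte-like, 2 against VSMC-like and 3 against border macrophage-like cells. The shares of genes above are those of edgeR. For all genes, DESeq2 was among settings that called 69.6 to 132% of the reported number over all comparisons. The Bmp5 call held under 12 of 13 alternatives against endothelial-like cells (edgeR and DESeq2 adjusted p of up to 0.17). It held under 11 of 13 against each of pericyte-like (up to 0.97), VSMC-like (up to 0.79) and border macrophage-like cells (up to 0.33). Without the Gjb6-led cluster the Bmp4 call against endothelial-like cells was lost (-1.297) and Bmp7 was called against border macrophage-like cells (edgeR adjusted p = 0.039). With 1 BA library left out no spread between libraries remains, so these comparisons could not be fitted without either; dural Bmp5 (64.2 and 14.2 CPM) and Bmp7 (11.00 and 2.36 CPM) differed most between the libraries. With cells of up to 20% mitochondrial UMIs the Bmp2 differences were smaller, at -1.02 (not called) for endothelial-like, -1.43 for pericyte-like, -3.002 for VSMC-like and -4.25 for border macrophage-like cells, and the Bmp6 difference from pericyte-like cells was 1.99 and not called.

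Among the endothelial-like cells, which line the vessels, Bmp6 was the ligand called between preparations. It was at 3.07, 14.5, 21.0 and 3.25 CPM in the CSA libraries (10.4 ± 8.84, n = 4) and at 40.2 and 56.2 CPM in the BA libraries (48.2 ± 11.3, n = 2), so that all CSA values lay below both BA values. Bmp2, Bmp4 and Bmp6 entered the test only through the BA cells, where each was higher. Bmp6 had a UMI in 3.29% of CSA and 21.3% of BA cells, Bmp4 in 6.76% and 18.8%, and Bmp2 in 9.51% and 15.3%. Of 3 ligands tested, 1 was called, beside 6.30% of genes: Bmp6, with a log2 fold change of -2.28 ± 0.38 (edgeR adjusted p = 3.3e-04). DESeq2 gave -2.25 and did not call it (adjusted p = 0.081), and with cells thinned to 1500 UMIs no ligand was high enough to test. Bmp4 was at 33.7, 19.9, 7.89 and 47.7 CPM in the CSA and 54.8 and 73.4 CPM in the BA libraries, a difference of -1.15 ± 0.34 (edgeR adjusted p = 0.029) that stayed under the fold threshold; without CSA library 4 it was -1.65 and without libraries 3 and 4 -1.48, both called. For Bmp4, too, all CSA values lay below both BA values. Bmp2 was not called (29.0 ± 9.28 and 39.4 ± 3.59 CPM, edgeR adjusted p = 0.40). Its highest CSA library was at 36.84 CPM and its lower BA library at 36.87 CPM, so the ranges touched without overlap.

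The endothelial-like clusters differed in size between the preparations, and the ligands differed between clusters. Of the 547 CSA cells, 248 were in a capillary-like cluster (Mfsd2a, Spock2 and Slc7a5) with Bmp6 at 0.64 CPM and Bmp4 at 0, 204 in a cluster with Vwf among its leading genes, Bmp6 at 0 and Bmp4 at 16.2 CPM, and 83 in an arterial-like cluster (Gkn3, Bmx and Sema3g) with Bmp4 at 139 CPM and Bmp6 at 10.4 CPM (6 UMIs). Only 12 CSA cells formed a cluster led by Gpihbp1 and Plvap, a gene of fenestrated endothelium, and these had Bmp6 at 253 CPM in 11 cells with a UMI. The BA cluster led by Gpihbp1 held 228 of 600 cells, with Bmp6 at 76.7 CPM. In the BA arterial-like cluster (152 cells) Bmp6 was at 68.1 CPM, in the cluster led by Selp and Vwf (92 cells) at 44.4 CPM, and in the capillary-like cluster (128 cells) at 1.66 CPM. Bmp4 was highest in the BA cluster led by Selp and Vwf, at 187 CPM (152 and 202 CPM in BA libraries 1 and 2), and at 52.0 CPM in the arterial-like one. Between clusters of like name, Bmp6 was higher in the BA preparation in the arterial-like (68.1 against 10.4 CPM) and Vwf-led pairs (44.4 against 0) lower in the Gpihbp1-led pair (76.7 against 253 CPM in 12 cells) and at 1.66 and 0.64 CPM in the capillary-like pair, while Bmp4 was lower in the BA arterial-like cluster and higher in the other pairs. The part of cluster sizes in the class values was not tested.

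Pericyte-like cells, named from pericyte markers, had the highest mean level of Bmp5 in both preparations. The class also held clusters led by Ccl19 or Ccl11, and mesenchymal markers summed to 1321 (CSA) and 2645 CPM (BA) in it. It lacked sub-clusters with leading markers of both pericytes and VSMCs, which took no class name. Bmp5 was at 83.5, 54.6, 73.4 and 64.1 CPM in the CSA libraries (68.9 ± 12.4, n = 4) and at 138 and 73.1 CPM in the BA libraries (106 ± 45.9, n = 2). The ranges overlapped and the difference was not called (-0.59 ± 0.29, edgeR adjusted p = 0.28). Bmp2 entered this comparison only through the BA cells, where it was higher: 26.5% of them had a UMI, against 7.75% of the CSA cells. Of 3 ligands tested, 1 was called, beside 6.47% of genes: Bmp2, at 27.3, 29.5, 17.5 and 14.5 CPM in the CSA libraries and 52.3 and 57.0 CPM in the BA libraries (-1.39 ± 0.33, edgeR adjusted p = 0.011). That call was lost without BA library 2 (-1.13, edgeR adjusted p = 0.30), without CSA library 4 (-1.23, edgeR adjusted p = 0.037), without libraries 3 and 4 (-1.17) and in DESeq2 (-1.41, adjusted p = 0.054). Bmp4, at 55.3 ± 19.2 (n = 4) and 25.7 ± 16.2 CPM (n = 2), was not called (0.80, edgeR adjusted p = 0.25).

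Within the CSA pericyte-like class Bmp5 was at a like level in both clusters while Bmp2 and Bmp4 were not. The CSA cluster of 278 cells and that of 225 cells had Bmp5 at 73.9 and 60.4 CPM, but Bmp2 at 1.62 and 41.2 CPM and Bmp4 at 30.9 and 84.4 CPM. Bmp2 was higher in the cluster of 225 cells, led by Colec11 and Ccl19, in every CSA library (32.6 to 48.2 CPM, against 0 to 4.54 CPM). In the BA preparation Bmp5 was less even, at 126 CPM in the cluster of 79 cells, 46.0 CPM in the cluster of 35 cells led by Ccl19 and 48.9 CPM in that of 22 cells led by Ccl11. Their Bmp4 levels were 1.97, 82.2 and 34.2 CPM. Bmp2 was at 39.3, 29.6 and 137 CPM, so that the Ccl19-led cluster was not the higher one for Bmp2 there.

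**Figure D4:**
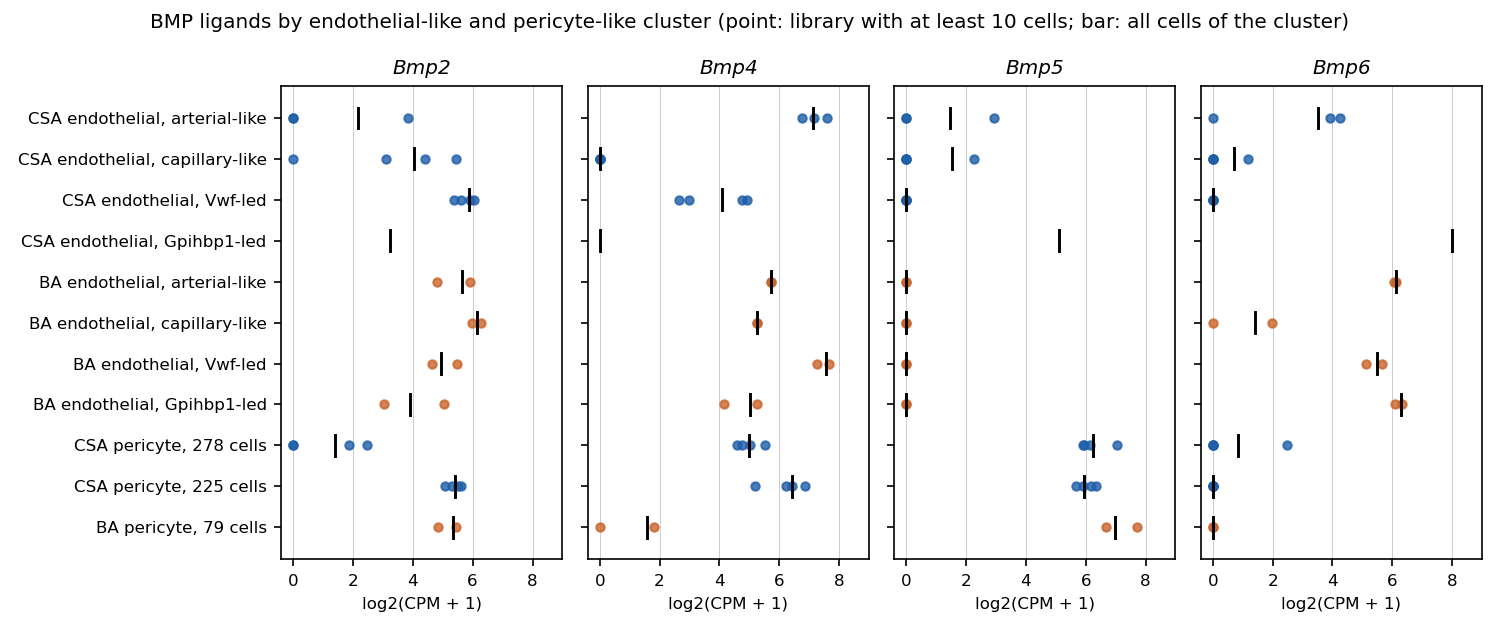
Bmp2, Bmp4, Bmp5 and Bmp6 in endothelial-like and pericyte-like clusters, as log2(CPM + 1) on the x axis; points are libraries with at least 10 cells of the cluster (blue CSA, orange BA) and black bars all cells of the cluster pooled. Bmp5 lies at 60.4 to 126 CPM in the 3 pericyte-like clusters drawn and at 0 in the BA endothelial-like ones, and Bmp6 is at 253 CPM in the 12-cell CSA Gpihbp1-led cluster and 76.7 CPM in the BA one.

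VSMC-like cells, the contractile cells of larger vessels, carried Bmp2 and a low level of Bmp6. Bmp2 was at 75.0 and 72.6 CPM in CSA libraries 1 and 2 and at 133 and 122 CPM in the BA libraries. Of 2 ligands tested 0 were called by edgeR or DESeq2, beside 6.32% of genes; 1 had an unadjusted p under 0.05. That was Bmp2 (-0.91 ± 0.25, edgeR adjusted p = 0.012), under the fold threshold. Bmp6 was at 27.2 and 20.3 CPM in the CSA and 13.7 and 21.2 CPM in the BA libraries (0.29 ± 0.34, edgeR adjusted p = 0.74). At 1500 UMIs the share of cells with Bmp2 was 7.78% (CSA) and 15.5% (BA) in VSMC-like, 3.65% and 3.38% in endothelial-like and 2.64% and 7.41% in pericyte-like cells.

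Border macrophage-like cells, the resident macrophages of the meninges and perivascular spaces (Mrc1, Pf4, Lyve1), carried Bmp2, with the other 4 ligands at a mean of 10.3 CPM or less in either preparation. Bmp2 was at 449, 404, 80.4 and 139 CPM in CSA libraries 1 to 4 (268 ± 185, n = 4) and at 232 and 356 CPM in the BA libraries (294 ± 87.8, n = 2). CSA libraries 1 and 2 were above, and libraries 3 and 4 below, both BA libraries. The difference was not called (-0.31 ± 0.57, edgeR adjusted p = 0.81): 0 of 1 ligand tested was called by edgeR or DESeq2, beside 5.82% of genes, and 0 had an unadjusted p under 0.05. The sign was not stable, since it was 0.29 without CSA libraries 3 and 4 and 0.25 without BA library 2. The CSA cluster led by Ccl7, Ccl2 and Hmox1 had 443 CPM and held 149, 174, 8 and 12 cells from libraries 1 to 4. The others, led by Ms4a14 and Adam33 (145 cells) and by Ccl8 and Chp2 (228 cells), had 131 and 100 CPM, and most of the cells of libraries 3 and 4 were in these.

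Bmp2 was also unevenly spread among border macrophage-like cells. At full depth 300 of 716 CSA and 54 of 112 BA cells had a UMI. The 72 CSA and 12 BA cells with the most held 75.2% and 72.5% of the UMIs, with up to 79 and 114 in a cell. At 1500 UMIs the share was 21.1% (CSA) and 20.0% (BA). Bmp6 and Bmp7 were at 87 and 31 UMIs in the CSA and 0 and 0 in the BA border macrophage-like cells. The ratio of Bmp6 to Bmp7 UMIs was 2.81 there and 2.51 in leptomeningeal cells of the same preparation. The mesenchymal markers summed to 232 CPM in the CSA macrophage class, with 0 of 8 at 0; their part in these UMIs was not tested.

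The profiles of the ligands over classes were only partly alike. Over 27 groups of class and preparation with at least 20 cells, Pearson r of log2(CPM + 1) between pairs of ligands ran from 0.20 (Bmp2 and Bmp7) to 0.66 (Bmp4 and Bmp5). Among 14411 genes, the most like Bmp2 were Cp (0.81), Spaca6 (0.81) and Sash1 (0.80), and the most like Bmp4 were Lamb1 (0.91), Fbln5 (0.90) and Lepr (0.89). For Bmp5 they were Il34 (0.96), Pcdh18 (0.95) and Gpc6 (0.94), for Bmp6 Gprc5b (0.85), Synm (0.84) and Fgfr2 (0.83), and for Bmp7 Frmpd4 (0.86), Wfikkn2 (0.84) and Slc13a4 (0.83). Groups of a preparation share libraries and depth, so these are descriptions.

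Among the other genes of the pathway, more were lower than higher in leptomeningeal than in dural cells. Of 68 listed genes 67 were in the files and 45 could be tested. Of these, 2 were called higher in leptomeningeal cells, beside 5.69% of all genes tested, 19 were called lower, beside 8.96%, and 24 were not called. The median log2 fold change was -0.94, against -0.02 over all genes tested. The genes of the list were chosen with results of these data known, so the counts are a description.

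Extracellular antagonists and modulators, which bind BMPs before they reach a receptor, held 9 of the 19 lower calls among 16 tested. Of all genes tested 8.96% were called lower. The median of the 16 was -1.69, and the rest were called higher or not called. Chrd, which encodes chordin, was at 17.2 CPM in leptomeningeal and 7.80 CPM in dural cells (libraries pooled), and Twsg1 at 216 and 137 CPM. Chrdl1, a chordin-like antagonist, had 0 leptomeningeal UMIs against 1060 dural UMIs and was at least 184-fold lower in CPM. Nog, which encodes noggin, had 0 against 198 (at least 34.4-fold lower) and Fst, which encodes follistatin, 0 against 129 (at least 22.4-fold lower). Bmper had 3 against 195, a ratio of 33.8 (11.4 to 166).

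Response genes, which BMP signalling is known to induce, held 7 lower calls among 10 tested, beside 8.96% of all genes. Their median was -2.27. In the other classes, 8 of 9 tested were called lower in CSA than in BA pericyte-like cells (beside 4.92% of all genes, median -2.14). The counts were 5 of 10 in VSMC-like (4.08%, -1.305), 1 of 3 in border macrophage-like (4.58%, -1.69) and 1 of 9 in endothelial-like cells (4.12%, -0.65). Id2 was at 105, 104, 79.9 and 95.2 CPM in leptomeningeal and 986 and 1189 CPM in dural cells (-3.35 ± 0.24, edgeR adjusted p = 2.4e-10). Msx2 had 0 UMIs against 143 (at least 24.8-fold lower), Id4 had 7 against 154 (-3.55 ± 0.63) and Hey1 5 against 131 (-3.46 ± 0.64). Id3, the member with the highest level, was at 789 to 1703 CPM in leptomeningeal and 1643 and 2080 CPM in dural cells and was not called (-0.45 ± 0.29, edgeR adjusted p = 0.36). In pericyte-like cells Id2 was at 31.6 CPM (CSA, libraries pooled) and 262 CPM (BA), and in border macrophage-like cells at 213 and 1307 CPM. Id1 was higher in CSA endothelial-like cells (1302 against 679 CPM in BA, libraries pooled) and CSA VSMC-like cells (495 against 367 CPM). It was lower in CSA pericyte-like (87.8 against 263 CPM) and border macrophage-like cells (4.21 against 10.1 CPM).

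Between leptomeningeal and dural cells, 14.7% of all genes tested were called and 8.96% were called lower. Among receptors and co-receptors 1 of 9 tested was called, which is near that share. It was the co-receptor Tgfbr3, higher in leptomeningeal cells (1.47 ± 0.29, edgeR adjusted p = 4.9e-04). None of the 4 SMAD transducers was called in edgeR (adjusted p of 0.21 to 0.99; medians of -0.22 for the transducers and -0.16 for the receptors). Of 4 processing enzymes tested, Bmp1, a procollagen and chordin protease (-2.28 ± 0.42), and the proprotein convertase Pcsk5 (-1.31 ± 0.43) were lower, and the median was -0.82. Of 15 other ligands of the family 2 could be tested, and Gdf10 was called lower (-7.04 ± 0.43, edgeR adjusted p = 2.5e-11), at 0 to 20.4 CPM in the leptomeningeal and 1212 and 794 CPM in the dural cells. In endothelial-like cells 28 genes of the lists were tested, with 0 called higher and 6 lower in the CSA libraries, beside 4.12% of genes called lower, and their median was -0.52. The same counts were 0 and 11 of 33 in pericyte-like cells (beside 4.92% of genes called lower; median -0.65), 1 and 6 of 38 in VSMC-like cells (4.08%; -0.12) and 1 and 4 of 16 in border macrophage-like cells (4.58%; -0.11).

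**Figure D5:**
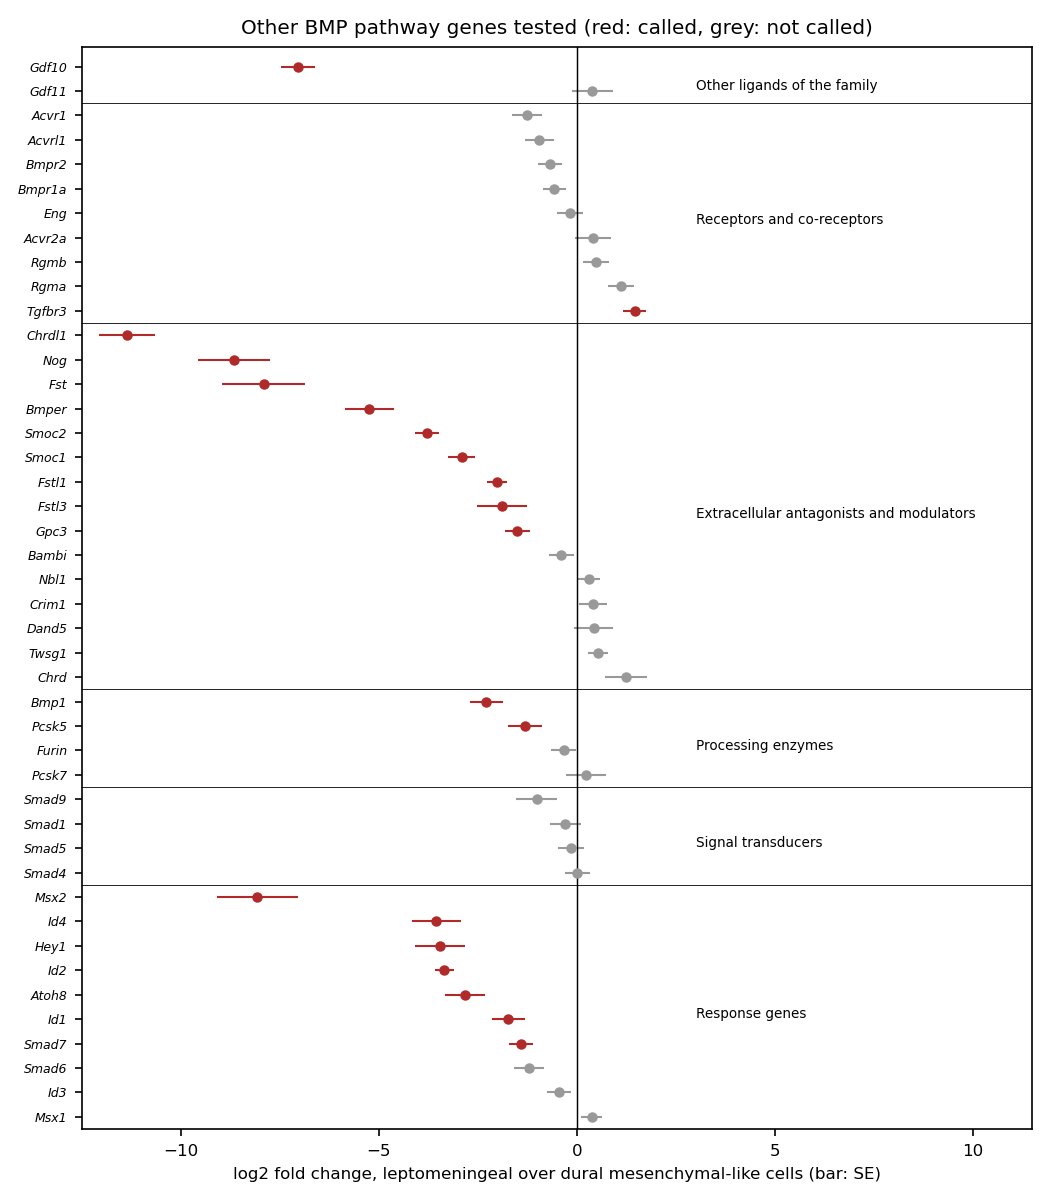
Log2 fold change in leptomeningeal over dural cells (x axis, bars SE) of the tested pathway genes, grouped by role, with 1 gene not drawn; red marks genes called by edgeR and grey those not called. The antagonists and response genes called lower lie on the left side, and others of these groups were not called. Of the genes drawn only Tgfbr3 (1.47) is red on the right. The fitted values of Chrdl1, Nog, Fst and Msx2, which had 0 leptomeningeal UMIs, are not bounds.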

How the data were processed

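Libraries were made with the Chromium Single Cell 3′ kit and the authors aligned reads to mm10 with Cell Ranger (version 3 in the submitters' notes, 6.1.2 in the matrix headers). The deposited values are raw UMI counts per gene and barcode, without normalization. The labels' extraction text describes a papain digest of another brain region, whereas the study's methods give collagenase and dispase digests of cortical surface and inner skull tissue; the groups were taken from the sample titles. The members and the pathway lists were chosen with earlier results of these data known.

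Cells needed 500 or more detected genes, and mitochondrial UMIs of no more than 10%; 124 likely doublets (1.41%) were removed by simulated doublets. Each preparation was clustered separately (2000 variable genes, 30 components, 15 neighbours, Leiden resolution 1.5; Python 3.11.15, igraph 0.11.9, leidenalg 0.10.2). A cluster was named from 3 or more leading markers; for myeloid classes, genes shared among myeloid cells did not bar a name.

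Counts were summed per library and class where a library had at least 10 cells. The test was edgeR 4.0.16 (R 4.3.3; TMM, quasi-likelihood): preparations were compared within a class, with genes detected in over 10% of cells of either group, and classes within a preparation in 1 fit over all classes, with library as a block and genes detected in over 10% of cells of any class. The SE of an edgeR value was derived from the test, as the absolute log2 fold change divided by the square root of the F statistic. On simulated counts with 200 changed genes, 91.5% were recovered in the leptomeningeal and dural comparison (9576 genes) and 79.5% in the leptomeningeal and endothelial-like one (13253 genes). False calls were 2 and 5. The changed genes were drawn among those with over 200 UMIs, at log2 fold changes of 2 or 3 in either direction and a fixed spread. Bmp5, with 99 leptomeningeal and 89 dural UMIs, lies below that count, so the recovery does not cover it. Alternatives were DESeq2 1.42.0, upper-quartile scaling, other gene, cell and doublet filters, clustering resolution 1, thinning to 1500 UMIs, hemoglobin genes left out, other blocks, and each library left out, except in comparisons of classes within the BA preparation, which could not be fitted with 1 library. Leaving out CSA libraries 3 and 4 or the Gjb6-led BA cluster was chosen after seeing the data. Ratios of pooled UMIs have exact 95% intervals for counting error only, and a class with 0 UMIs was set to a floor of 3 UMIs over the group. Named are the 5 ligands, the 3 genes most like each, and up to 4 called genes per pathway list with the largest fold change. Id1, Id3, Chrd and Twsg1 were named after their values were seen. Counts over the pathway lists include 1 gene whose own values are not reported here.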

Additional observations from a re-analysis of the deposited data

Results flagged for a closer look

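In 6 combinations of a ligand and a vascular class (endothelial-like, pericyte-like or VSMC-like), the difference between mesenchymal-like cells and that class had one sign in every CSA library that held both classes and the opposite sign in both BA libraries. VSMC-like cells were in CSA libraries 1 and 2 only. The values are mean differences in CPM, mesenchymal-like minus the other class, within libraries. For Bmp2 they were 151 (CSA) and -32.9 (BA) against endothelial-like cells, 158 and -48.1 against pericyte-like cells, and 129 and -121 against VSMC-like cells. For Bmp4 they were 54.1 and -40.5 against endothelial-like cells. For Bmp6 they were 438 and -38.6 against endothelial-like cells, and 508 and -7.87 against VSMC-like cells. The last of these was not called: dural and BA VSMC-like cells held 55 and 57 UMIs of Bmp6, a ratio of 0.721 in CPM (0.489 to 1.06). The difference between the preparations in these differences was not tested. Such changes of sign were not counted over all genes, so their number cannot be read as a trait of the ligands.

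Clusters that took no class name and so entered no comparison also held ligands above the mean CPM of T or NK-like cells of the same preparation. For Bmp7 that mean is no background, since those cells carried it unevenly. Among BA clusters, 25 cells led by Nts, with VSMC and mesenchymal markers, had Bmp2 at 130 CPM. Another 30 cells led by Ptx3, with pericyte, VSMC and mesenchymal markers, had Bmp2 at 67.2 and Bmp5 at 61.6 CPM. A set of 3 sub-clusters of 1 cluster, led by Olfr78 (50 cells), Olfr558 (43 cells) and Dlk1 (31 cells), had Bmp2 at 122, 98.9 and 85.5 CPM. These, a further sub-cluster of 29 cells, and CSA sub-clusters of 31, 26 and 17 cells had leading markers of both VSMCs and pericytes. The VSMC-like and pericyte-like comparisons therefore left them out. A cluster of 190 BA cells led by Il5, Arg1 and Areg had Bmp2 at 74.8 and Bmp7 at 51.4 CPM. In the CSA preparation, 303 cells led by Cxcl14 and H2-Eb1 had Bmp2 at 19.2 CPM, and 56 cells led by Csf2, Arg1 and Lif had Bmp7 at 59.2 CPM. The BA cluster led by Il5 and the CSA cluster led by Csf2 both list Csf2, Arg1, Lif and Il17rb among their leading genes, and in both Bmp6 was at 0 UMIs.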

How the results depend on the processing

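Over 232 refits of the count of ligands called, 213 stayed within 1.5 times the reported count, and of 925 refitted fold changes 885 kept their direction and call. The 4 ligands called between leptomeningeal and dural cells were called under every alternative in which they could be tested (all but Bmp4 with thinned cells); with cells thinned to 1500 UMIs, 580 of 2643 genes were called in place of 1403 of 9576. In that comparison the Bmp5 value ran from -0.19 (without BA library 2) to 1.82 with 1 library left out. Between preparations, the count for endothelial-like cells was 0 in DESeq2, 0 thinned (none could be tested), 2 without CSA libraries 3 and 4, and 1 to 2 with 1 library left out; for pericyte-like cells it was 0 in DESeq2, 0 thinned (Bmp2 could not be tested), 0 without CSA libraries 3 and 4, and 0 to 1 with 1 library left out. Border macrophage-like cells gained 1 call without a gene filter, Bmp6 (87 UMIs against 0, at least 6.71-fold), and their Bmp2 value ran from -0.62 to 0.25 with 1 library left out, changing sign without BA library 2 and without CSA libraries 3 and 4 (0.29). Bmp6 in VSMC-like cells ran from -0.026 (without BA library 1) to 0.71. Within preparations, DESeq2 called 3 ligands between leptomeningeal and VSMC-like cells, 2 between dural and endothelial-like and 2 between dural and VSMC-like cells; thinning left 2, 1 and 1 between dural and endothelial-like, VSMC-like and border macrophage-like cells, and the 20% mitochondrial limit left 3 for endothelial-like cells. Over all genes, thinning left 24.6 to 52.6% of the reported number of calls. DESeq2 and the 20% mitochondrial limit were among settings that gave 69.6 to 132% of it. The cause of these changes was not tested.

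Replicate numbers are shared by libraries 1 and 2 of each preparation, but nothing says that equal numbers share mice or a day. Their deviations from the group means correlated at 0.06 and 0.15. The 2 BA libraries deviate from their mean by equal and opposite amounts, so these correlations cannot show whether the numbers are paired. With the number as a replicate block, 4 ligands were called between leptomeningeal and dural cells, 2 in endothelial-like, 0 in pericyte-like, 0 in VSMC-like and 0 in border macrophage-like cells, where Bmp2 changed sign (0.35). For all genes, this block was among settings that called 69.6 to 132% of the reported number.

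Depth limits low classes: 0 of 556 T or NK-like cells at 1500 UMIs has an exact interval of up to 0.661%, and of the dural cells BA library 1 held 30.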
